A study of Bos taurus with 24 samples.

Results

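The neutrophil-attracting CXC chemokines were followed in dermal fibroblasts (DF), the collagen-producing cells of the skin, from 4 Holstein and 4 Angus heifers. The group was defined by 5 symbols, IL8, CXCL2, CXCL3, CXCL5 and CXCL6. A row with that symbol was found for 3 of the 5, 1 row each for IL8, CXCL2 and CXCL6, among 27550 rows with a gene symbol and 59846 rows in all. No row carries the symbol CXCL3 or CXCL5, so neither has values of its own here. The current cattle annotation of RefSeq lists CXCL6 as an older name of CXCL5 (gene 281735) and IL8 as an older name of CXCL8 (gene 280828), so the CXCL6 row and the name CXCL5 refer to 1 cattle gene.

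The cultures, grown from shoulder skin of females of matching age, the Holstein being bred for milk and the Angus for beef, were exposed to 100 ng/ml lipopolysaccharide (LPS), a component of the wall of Gram-negative bacteria, for 0, 2 or 8 h, which gave 6 groups of 4 samples. The 0 h samples stand as the unexposed reference. RNA came from paired wells whose lysates had been combined, each animal contributed 1 sample per hour, and the animals are the replicates. Calves of the breeds are commonly reared in different ways, which cannot be told apart from breed in this design. Whether an animal's samples varied for technical reasons was not measured, so p-values reflect the spread between animals' cultures. The poly(A) RNA was sequenced and counted per gene row.

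Members of this chemokine family are small secreted proteins that carry the motif Glu-Leu-Arg before their first cysteines and draw neutrophils out of the blood by binding the receptors CXCR1 and CXCR2. LPS is sensed by TLR4 with its partners MD-2 and CD14, and the signal frees NF-kB, which switches on chemokine genes within the first hours. Their transcripts are short-lived, so that both synthesis and decay shape a time course. In the cow, IL8 is the best-known neutrophil attractant of the infected udder, and dermal fibroblasts are used as an accessible cell in which animals can be compared.

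The libraries held between 51014538 and 104406293 counts, so that 3 counts, the floor used here, amounted to between 0.029 and 0.059 CPM, the unit of counts scaled to an equal library size. The label of the cells was met by fibroblast genes, with COL1A2 at 15000 CPM or more and VIM at 3970 CPM or more in each sample. Leukocyte markers summed to between 2.81 and 6.04 CPM over 8 genes, with PTPRC, ITGAM, CD3E and CD79A under 1 CPM in each sample and CD68, a macrophage marker that other cells also express, at 1.35 to 4.34 CPM. CD68 was called higher at 2 h in Holstein (1.07 on the log2 scale), and its part in the results was not tested. Keratinocyte markers summed to between 0.45 and 14.7 CPM over 6 genes, and KRT5 reached 1 CPM in 3 samples, all from Holstein animal 1. Endothelial markers summed to between 2.03 and 5.22 CPM, melanocyte markers to between 5.63 and 12.2 CPM and smooth muscle and pericyte markers to between 394 and 804 CPM. The endothelial marker VWF, at 0.513 to 3.28 CPM, was called higher in Holstein at 2 h (1.11 on the log2 scale) and 8 h (1.31), and its part in the breed results was not tested, while CDH5 and KDR did not exceed 0.247 and 0.0628 CPM. In 4 libraries (Angus animal 4, Holstein animals 2 and 4 at 0 h and Angus animal 3 at 2 h) the COL1A1 row had 66.2 to 67.1 covered bases for each count, while the remaining 20 had 111.8 to 119. In those 4 libraries IL8 had 81.3 to 97.9 covered bases for each count (79.0 to 100 in the 20) and CXCL6 80.5 to 85.4 (83.0 to 86.4 in the 20). The CXCL2 row had 186 to 349 in the 4 and 151 to 311 in the 20. Its values differed by hour, with 256 to 349 over the 8 libraries at 0 h. Calls that change without the 4, and values that move by over 1.5 times, are given with both values. Such fits keep the other hours of the same animals, so that comparisons between hours then rest on partly different animals. As bulk cultures were measured, more RNA per cell and more cells making a transcript cannot be told apart.

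The 3 rows lie together on chromosome 6 (UMD 3.1). The IL8 row spans chr6:90559882-90563647, the CXCL6 row chr6:90645964-90648082 and the CXCL2 row chr6:90695494-90824841, all on the plus strand. Each row covers a whole gene span, introns included. The IL8 and CXCL6 rows are compact, at 3.77 kb and 2.12 kb. The CXCL2 row is 129 kb long, and an unnamed interval of 133 kb starting 14.4 kb inside it (chr6:90709881-90842884) shares most of its length. In the RefSeq gene order, taken from another assembly than UMD 3.1, the run reads CXCL8, LOC534181, CXCL5, PPBP, PF4, CXCL2, LOC100847175, LOC101906736, CXCL3, GRO1 and MTHFD2L. If that order holds in UMD 3.1, CXCL3 and GRO1, which RefSeq also lists as CXCL1, lie between CXCL2 and MTHFD2L. The interval runs 18.0 kb beyond the end of the CXCL2 row, up to MTHFD2L. The order does not say whether CXCL3 and GRO1 lie in the stretch shared with the row or beyond it. Counts of the CXCL2 row are therefore uncertain as counts of CXCL2 alone.

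**Figure D1:**
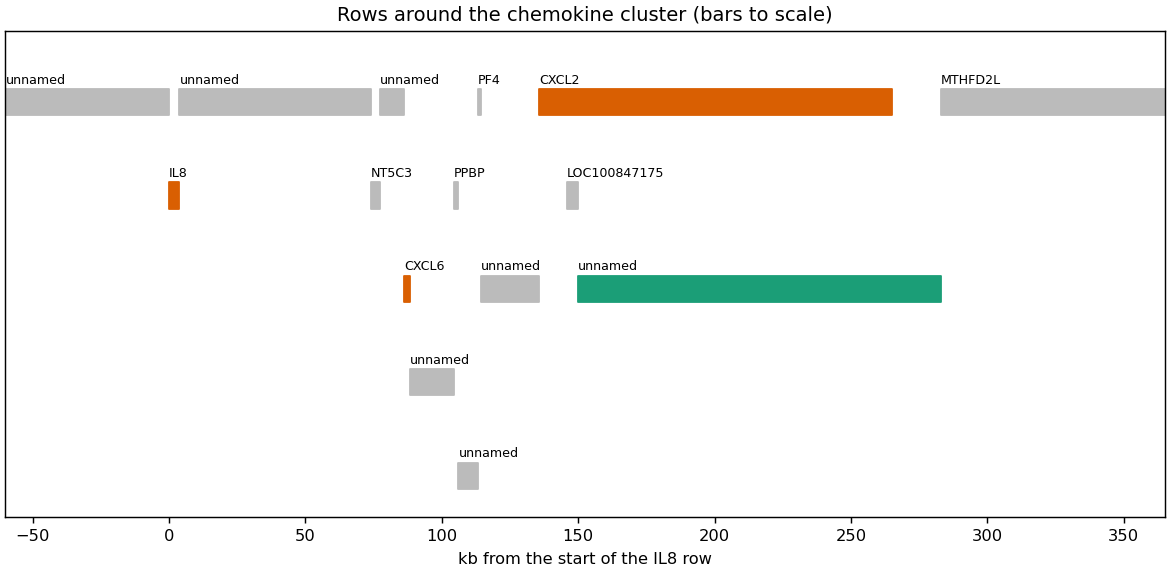
Rows on chromosome 6 around the chemokine cluster, drawn to scale by distance in kb from the start of the IL8 row, with rows at the plot's edges cut off. The orange bars are the IL8, CXCL6 and CXCL2 rows, the green bar is the unnamed 133 kb interval that overlaps the CXCL2 row, and grey bars are the other rows.

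Between and beside the 3 rows the neighbours were low. PPBP, a platelet chemokine of the same receptor class, had no count in any sample, and PF4, a platelet chemokine without the motif, did not exceed 0.0749 CPM. LOC100847175, which lies within the first part of the CXCL2 row, was also without a count. MTHFD2L, a mitochondrial folate enzyme on the far side of the cluster, stayed between 3.91 and 9.54 CPM, and an NT5C3 row between IL8 and CXCL6 stayed between 1.82 and 3.52 CPM. RASSF6, on the other side of IL8, did not exceed 0.585 CPM and EREG, an EGF family ligand at the edge of the 500 kb window, did not exceed 1.99 CPM. Of the remaining symbol rows in the window, ALB, AFP and AFM (liver plasma proteins) did not exceed 0.115, 0.0399 and 0.0861 CPM, and LOC100140503 and LOC100295331 did not exceed 0.852 and 0.0441 CPM. The rows of this window that exceeded 10 CPM in any sample were IL8, CXCL6, the CXCL2 row and the interval on it.

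Before LPS, IL8 was near the detection floor. The Angus samples held 10, 21, 19 and 18 IL8 counts in animals 1 to 4, which gave 0.123, 0.24, 0.205 and 0.173 CPM, and a mean of 0.185 ± 0.0499 CPM (SD, n = 4). The Holstein samples held 6, 5, 5 and 3 counts, or 0.0898, 0.0732, 0.0545 and 0.0661 CPM, with a mean of 0.0709 ± 0.0148 CPM (SD, n = 4). Each Angus sample was thus above each Holstein sample, a separation in this direction that 7.99% of all rows tested at 0 h also showed. IL8 did not pass the filter of 1 CPM at this hour and got no fitted value. The exact permutation test of log2(CPM + 0.1), two-sided, gave a Holstein minus Angus difference of -0.73 on that scale, which understates the change of a gene this low (p = 0.0286, the smallest that 4 against 4 allows). The difference was -0.15 with 1 CPM added instead, and p was 0.0571 without any 1 of the Holstein animals.

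The CXCL2 row was also low before LPS, at 2.83, 3.64, 3.33 and 1.68 CPM in Angus animals 1 to 4 and at 1.90, 1.77, 1.37 and 1.89 CPM in the Holstein animals. Angus animal 4 fell within the Holstein range, so the groups overlapped. CXCL6, a neutrophil attractant made by many stromal cells, was the member with the highest resting level per kb of row, at a mean of 4.86 CPM per kb in Angus and 5.44 CPM per kb in Holstein, against 0.0492 and 0.0188 CPM per kb for IL8. Its CPM values ran from 3.67 to 18.2 in Angus and from 4.37 to 24.8 in Holstein, ranges that overlapped over most of their length.

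At 2 h of LPS, IL8 stood at 35.7, 13.8, 96.3 and 13.6 CPM in Angus animals 1 to 4. In the Holstein animals it stood at 21.4, 81.4, 31.9 and 52.7 CPM. The breeds overlapped fully, with the single highest value in Angus animal 3. The CXCL2 row reached 142, 90.9, 356 and 50.0 CPM in Angus and 105, 194, 92.5 and 223 CPM in Holstein. CXCL6 reached 136, 119, 395 and 53.7 CPM in Angus and 74.8, 192, 41.0 and 57.4 CPM in Holstein. For each of the 3 rows Angus animal 3 was the highest and Angus animal 4 the lowest of its breed at 2 h.

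At 8 h, IL8 stood at 19.8, 9.89, 38.1 and 6.57 CPM in Angus animals 1 to 4. In the Holstein animals it stood at 49.8, 125, 73.4 and 91.7 CPM. Every Holstein sample was now above every Angus sample, as in 11.2% of all rows tested at this hour. The CXCL2 row had come down to 64.8, 45.2, 84.8 and 25.6 CPM in Angus and to 86.3, 107, 69.9 and 105 CPM in Holstein, and the ranges overlapped through Angus animal 3. CXCL6 had its highest values of the series, at 260, 281, 684 and 101 CPM in Angus and at 668, 1180, 250 and 530 CPM in Holstein, again with overlap. Angus animal 3 and Holstein animal 2 were the highest of their breeds for all 3 rows at 8 h. The lowest Holstein IL8 values at 2 and 8 h were those of animal 1, the animal with KRT5 transcripts, whose part in that level was not tested. For the CXCL2 row and CXCL6 the lowest Holstein values at these hours were those of animal 3.

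**Figure D2:**
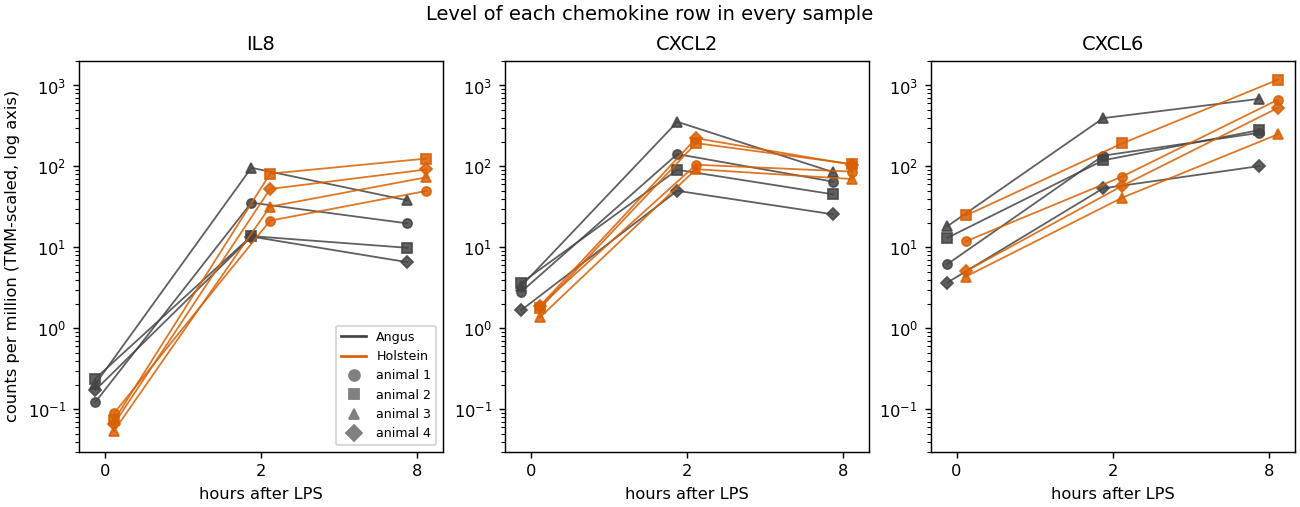
CPM (scaled by TMM, log axis) of the IL8, CXCL2 and CXCL6 rows at 0, 2 and 8 h of LPS, spaced evenly, with 1 line per animal (grey Angus, orange Holstein). IL8 lines fan out after 2 h, down in the 4 Angus animals and up in the 4 Holstein animals, while CXCL2 comes down and CXCL6 goes up in both breeds.

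Which chemokines LPS induced was asked first with the breeds combined. A call needed an FDR under 0.05, a change of at least 2-fold and an average above 1 CPM in edgeR's likelihood-ratio test. At 2 h all 3 rows were past it and higher, where 2.08% of all rows tested were called in that direction. IL8 rose by 8.36 ± 0.45 on the log2 scale (SE, edgeR, FDR = 7.68e-44), a 328-fold change and rank 1 by size of rise among the 20157 rows that passed the filter of 1 CPM in 50% of the samples. Rows nearly without counts at 0 h, such as CCL20, CX3CL1 and SAA3, did not pass it and are not ranked. The CXCL2 row rose by 6.09 ± 0.34 (FDR = 1.13e-44), rank 7, and CXCL6 by 3.61 ± 0.48 (FDR = 5.19e-10), rank 33. The median of the 3 was 6.09, beside a median of -0.004 over all rows.

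At 8 h the 3 rows were again past the threshold and higher, beside 1.07% of all rows, and the order had changed. IL8 stood 8.62 ± 0.53 above 0 h (log2, edgeR, FDR = 1.73e-30), rank 1 of the 20368 rows that passed the filter. CXCL6 had moved to rank 5, at 5.50 ± 0.47 (FDR = 2.85e-19), and the CXCL2 row was at 4.99 ± 0.27 (FDR = 1.37e-50), rank 6. The 95% intervals of CXCL6 and CXCL2 overlapped, so the order of these 2 rows at 8 h was not resolved. All 6 calls were kept under each alternative run, by every test, scaling, filter and animal left out.

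Within each breed all 3 rows were also past the threshold and higher at both hours, where 2.41% (2 h) and 1.91% (8 h) of rows were so called for Holstein, and 1.97% and 0.592% for Angus. In Holstein, IL8 rose by 9.34 ± 0.51 (2 h) and 10.21 ± 0.43 (8 h) on the log2 scale (edgeR, FDR = 8.75e-54 and 1.44e-113). In Angus it rose by 7.73 ± 0.62 and 6.63 ± 0.53 (edgeR, FDR = 2.28e-19 and 3.34e-20), rank 1 at either hour among the rows that passed the filter. Since the Holstein samples held 3 to 6 IL8 counts at 0 h, the size of the Holstein folds rests on few reads.

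The CXCL2 row rose in Holstein by 6.46 ± 0.29 at 2 h and 5.74 ± 0.17 at 8 h, and in Angus by 5.80 ± 0.54 and 4.26 ± 0.37. CXCL6 rose in Holstein by 2.98 ± 0.61 and 5.83 ± 0.58, and in Angus by 4.09 ± 0.63 and 5.01 ± 0.61. The fitted 2 h rise of CXCL6 was the larger in Angus with all libraries. Without the libraries that stood apart the 2 h rises in Angus came to 6.77 (IL8), 4.85 (CXCL2) and 3.03 (CXCL6), all still called. That of CXCL6 in Holstein came to 3.49, so that its order between the breeds turned. These fits compare groups of partly different animals at 0 and 2 h. In animals with both libraries kept, the log2 change of CXCL6 was 4.45 and 3.18 in Angus animals 1 and 2. In Holstein animals 1 and 3 it was 2.66 and 3.23. The 2 h and 8 h values of a breed share their 0 h samples.

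**Figure D3:**
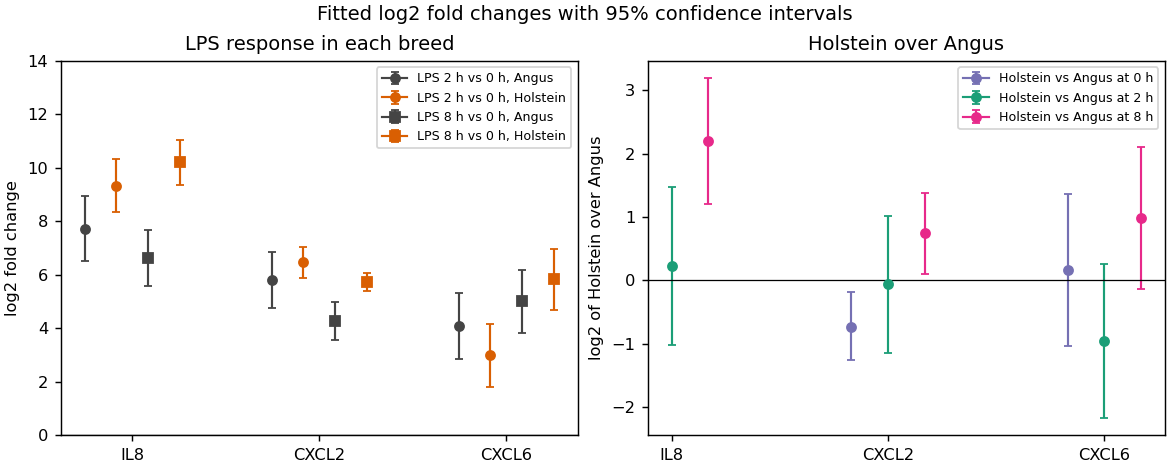
Fitted log2 fold changes with 95% confidence intervals for IL8, CXCL2 and CXCL6, at left LPS at 2 h (circles) and 8 h (squares) over 0 h in Angus and Holstein, at right Holstein over Angus at each hour (IL8 at 0 h did not pass the CPM filter). At 8 h the IL8 interval of Holstein, from 9.36 to 11.06, lies above that of Angus, from 5.59 to 7.68.

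How the members moved on between 2 and 8 h was compared next. CXCL6 rose further in Holstein, by 2.85 ± 0.54 on the log2 scale (edgeR, FDR = 1.37e-05), and was the 1 member called of 3, beside 3.91% of all rows. In the unblocked test no member passed in Angus, beside 2.36% of rows: CXCL6 was at 0.91 ± 0.66 (FDR = 0.471), IL8 at -1.10 ± 0.72 (FDR = 0.397) and the CXCL2 row at -1.54 ± 0.58 (FDR = 0.069). In Holstein, IL8 was at 0.86 ± 0.41 (FDR = 0.125) and the CXCL2 row at -0.74 ± 0.29 (FDR = 0.0491, under the 2-fold limit).

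The same animals were sampled at each hour, and with the animal as a block the errors shrank. The CXCL2 row then fell in Angus, at -1.29 ± 0.18 on the log2 scale (edgeR, FDR = 5.02e-11), which added 1 call. That fit called 2.73% of all rows. IL8 kept below the 2-fold limit in both breeds with the block, at 0.95 ± 0.11 in Holstein (FDR = 2.88e-15) and -0.93 ± 0.13 in Angus (FDR = 2.11e-10), and so did CXCL6 in Angus at 0.97 ± 0.09 (FDR = 1.44e-22). The direction of IL8 in these blocked values was opposite in the breeds. Without the 2 h library of Angus animal 3, which stood apart, the unblocked Angus values were -0.17 for IL8 (FDR = 0.929) and -0.77 for CXCL2 (FDR = 0.313), and CXCL6 passed at 1.7 (FDR = 0.0484). The 8 h sample of that animal, the highest of its breed, stayed in. With a whole Angus animal left out, IL8 was between -1.18 and -0.80, CXCL2 between -1.67 and -1.06 and CXCL6 between 0.83 and 1.05. Without Holstein animal 2, IL8 passed in Holstein at 1.01 (FDR = 0.0373), and without Angus animal 4 CXCL2 passed in Angus at -1.59 (FDR = 0.0316).

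Animal by animal, IL8 was higher at 8 h than at 2 h in 4 of 4 Holstein cultures, 2.32, 1.53, 2.3 and 1.74 times in animals 1 to 4. It was lower in 4 of 4 Angus cultures, at 0.555, 0.718, 0.395 and 0.482 times the 2 h level. This was so for 0.729% of 20291 rows. The mean log2 change differed by 1.89 between breeds (exact permutation test, two-sided, p = 0.0286, the smallest possible for 4 against 4), 1 of 9 such tests over 3 rows and 3 pairs of hours, of which 5 gave this p. Without Angus animal 3, whose 2 h library is 1 of the 4 that stood apart, the other 3 Angus changes lay between -1.05 and -0.48 and the Holstein changes between 0.62 and 1.22.

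CXCL6 was higher at 8 h than at 2 h in all 8 cultures, but by unequal steps. The Holstein animals gained 8.93, 6.16, 6.10 and 9.23 times, the Angus animals 1.91, 2.36, 1.73 and 1.88 times, and the 2 sets did not overlap, as in 6.18% of rows with Holstein above (exact permutation p = 0.0286). The CXCL2 row was lower at 8 h in all 8 cultures, at between 0.472 and 0.823 of its 2 h level in Holstein and between 0.238 and 0.511 in Angus, and these ranges overlapped (exact permutation p = 0.0857). In the Holstein animals the long CXCL2 row was thus lower at 8 h than at 2 h, while IL8 and CXCL6 were higher by different amounts.

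**Figure D4:**
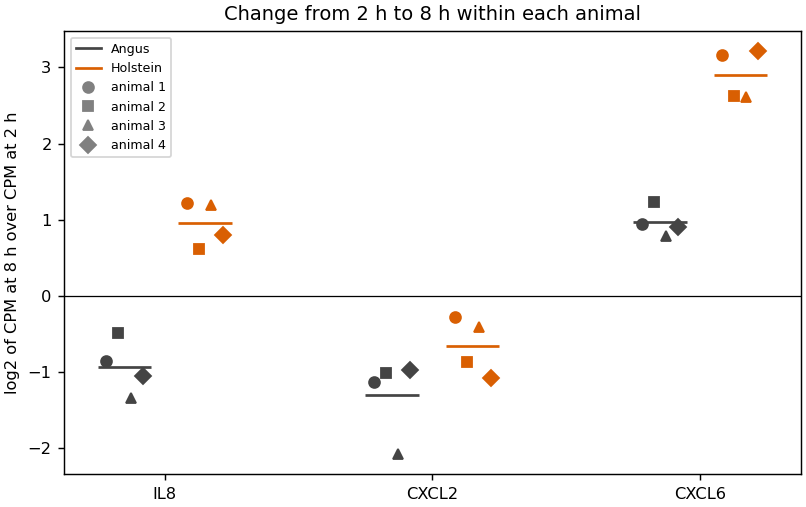
Log2 of the CPM at 8 h over that at 2 h in each animal (points; horizontal bars are the means of 4). IL8 lies between 0.62 and 1.22 in Holstein and between -1.34 and -0.48 in Angus, CXCL6 is above 0 in all 8 animals with the Holstein animals higher, and CXCL2 is below 0 in all 8.

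Whether the breeds differed at a given hour was tested directly. At 0 h neither of the 2 members tested was called, beside 3.81% of all rows. The CXCL2 row was at -0.73 ± 0.27 for Holstein over Angus on the log2 scale (edgeR, FDR = 0.0537), and without the 4 libraries that stood apart it passed, at -1 ± 0.29 (FDR = 0.039). CXCL6 was at 0.16 ± 0.61 (95% interval from -1.04 to 1.36, FDR = 0.901), and its sign turned without those libraries.

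At 2 h none of the 3 was called by edgeR, beside 4.45% of all rows; no member had an unadjusted p under 0.05 and none was called by DESeq2. IL8 was at 0.23 ± 0.64 on the log2 scale (edgeR, FDR = 0.841), with a 95% interval from -1.02 to 1.48 that leaves room for differences of more than 2-fold in either direction. The CXCL2 row was at -0.06 ± 0.55 (FDR = 0.952) and CXCL6 at -0.96 ± 0.62 (FDR = 0.29). Without the 2 h library of Angus animal 3, which stood apart, IL8 was at 1.16 (FDR = 0.0732), CXCL2 at 0.70 (FDR = 0.203) and CXCL6 at -0.18 (FDR = 0.84).

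At 8 h IL8 was the 1 member of 3 past the threshold, beside 3.24% of all rows (2.21% higher in Holstein). It was 4.58-fold higher in Holstein, at 2.19 ± 0.51 on the log2 scale (edgeR, FDR = 0.00108), and was called under all 17 alternatives, with FDR between 4.06e-08 and 0.0369. These include the fit without the libraries that stood apart, here the main fit again, and the FDR limit alone, which cannot lose a call. The CXCL2 row was at 0.74 ± 0.33 (FDR = 0.104) and CXCL6 at 0.99 ± 0.57 (FDR = 0.244), both not called. Angus animal 3 decided that count: without it all 3 members were called higher in Holstein, CXCL2 at 1.02 (FDR = 0.00573) and CXCL6 at 1.61 (FDR = 0.0146). The share of all rows called in either direction also rose without that animal, from 3.24% to 5.52%.

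Whether the LPS response itself differed by breed was tested as an interaction, the Holstein minus the Angus log2 change. From 0 to 8 h IL8 was called, at 3.57 ± 0.73 (edgeR, FDR = 0.00276), where 0.0982% of all rows were called. It was rank 4 among 20368 rows for a larger rise in Holstein. The call was kept by DESeq2 (FDR = 0.0066) and with the animal block (3.79 ± 0.57, FDR = 2.36e-08). It was lost with edgeR's quasi-likelihood F test (FDR = 0.752) and with the block and the F test together (FDR = 0.0505). These fits called 0% and 0.108% of all rows. The call was also lost without the 4 libraries that stood apart (3.6, FDR = 0.179) and without Holstein animal 4 (3.51, FDR = 0.0666). Here 0.0295% and 0.00979% of all rows were called. The lower 0 h level of Holstein, from 3 to 6 counts per sample, enters this value.

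The CXCL2 row and CXCL6 were not called in that interaction, at 1.46 ± 0.43 (edgeR, FDR = 0.272) and 0.82 ± 0.91 (FDR = 1). With the animal block both were called, CXCL2 at 1.52 ± 0.22 (edgeR, FDR = 7.15e-09) and CXCL6 at 1.01 ± 0.25 (FDR = 0.00829). That fit called 0.491% of all rows, against 0.0982% without the block. Leaving out Angus animal 3 or 4 also brought CXCL2 past the threshold, at 1.67 (FDR = 0.0276) and 1.42 (FDR = 0.0146). These fits called 0.304% and 0.0735% of all rows. With block and F test together, where 0.108% of all rows were called, CXCL2 stayed past the threshold (FDR = 0.031) and CXCL6 did not (FDR = 0.122). Animal by animal, all 4 Holstein rises from 0 to 8 h were above all 4 Angus rises in each of the 3 rows, a separation found in 4.36% of all rows.

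From 2 to 8 h, where 0 h plays no part, no member was called without the block, beside 0.286% of rows: IL8 was at 1.96 ± 0.89 (edgeR, FDR = 0.676), CXCL6 at 1.94 ± 0.92 (FDR = 0.756) and CXCL2 at 0.80 ± 0.70 (FDR = 1), with unadjusted p of 0.0282, 0.0361 and 0.25, and DESeq2 called none. Of the 4 libraries that stood apart, this test holds the 2 h library of Angus animal 3. Without that library, and with the 8 h sample of the same animal kept, these were 1.01, 1.14 and 0.02. With a whole animal left out they were 1.64 to 2.12 (IL8), 1.78 to 2.15 (CXCL6) and 0.31 to 0.96 (CXCL2). With the animal block IL8 was at 1.90 ± 0.19 (edgeR, FDR = 5.84e-19) and CXCL6 at 1.94 ± 0.16 (FDR = 3.38e-28), both called. That fit called 0.956% of all rows. The F test with the block, which called 0.749% of all rows, called the same 2 members, at FDR = 0.000882 and 0.000283. CXCL2 was not called, at 0.64 ± 0.25 (FDR = 0.133). From 0 to 2 h, where 0.278% of rows were called, no member was, with or without the block; unblocked, IL8 was at 1.61 ± 0.86 (edgeR, FDR = 1) and no member had an unadjusted p under 0.05. Unadjusted p did fall below 0.05 for IL8 with scaling by library totals (1.80, FDR = 0.753 in edgeR), and without the 4 libraries that stood apart for IL8 (2.55, FDR = 0.238) and CXCL2 (1.69, FDR = 0.258), while CXCL6 turned from -1.11 to 0.44. With the block CXCL6 had an FDR of 0.0338 at -0.90, under the 2-fold limit.

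What the CXCL2 row measured was examined through its coverage. The row had 151 to 349 covered bases for each count, IL8 79.0 to 100 and CXCL6 80.5 to 86.4. The CXCL2 row also held fewer counts than the interval in each sample, as with 8580 against 13640 in Angus animal 1 at 2 h. Shares of covered bases given below are therefore not shares of the row's counts. Subtracting the covered bases of the unnamed interval left a minimum for the first 14.4 kb of the row. By the RefSeq gene order CXCL2 would lie in that stretch. The value is a minimum because the interval's last 18.0 kb, outside the row, is subtracted as well. Before LPS this minimum averaged 5.41% of the row's covered bases for the Holstein and 4.25% for the Angus samples, with rounding of the coverage worth up to 5.97 percentage points. After 2 h the Holstein samples had 19.8% ± 3.29 and the Angus samples 28.3% ± 2.67 (SD, n = 4; ranges 16.4 to 24.1 and 24.8 to 30.9, exact permutation p = 0.0286, adjusted over 3 hours 0.0858). After 8 h they had 38.7% ± 4.77 and 35.7% ± 6.52 (exact permutation p = 0.543). Since these shares are minimums, the interval's part of the row is known only as an upper limit. The share of the row's covered bases in the minimum for the first stretch was larger at 8 h than at 2 h in all 8 animals.

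The minimum for the first stretch and the interval moved differently in Holstein cells. Scaled by library totals without TMM, the minimum at 8 h was 1.36, 0.954, 1.18 and 0.727 times that at 2 h in Holstein animals 1 to 4. In the Angus animals it was 0.56, 0.643, 0.347 and 0.59 times. A change in the 18.0 kb of the interval outside the row would also move these ratios, which was not tested. The breeds did not overlap in these ratios, with a mean difference of 0.98 on the log2 scale (exact permutation test, two-sided, p = 0.0286, the smallest that 4 against 4 allows, adjusted over 3 measures 0.0429). In the interval the coverage at 8 h was between 0.285 and 0.49 of that at 2 h in Holstein and between 0.217 and 0.54 in Angus, a difference of 0.09 (exact permutation p = 0.771). The gain of that minimum's share in percentage points, 16.6 to 20.9 in Holstein and 1.8 to 10.9 in Angus, did not overlap either (exact permutation p = 0.0286, adjusted 0.0429). The ratio and the gain rest on the same minimum, and the tests by hour were adjusted apart from these measures. Between 2 and 8 h the breeds thus separated in the minimum for the first stretch of the row. No difference was detectable in the interval, where reads of CXCL3 and GRO1 would fall by gene order.

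**Figure D5:**
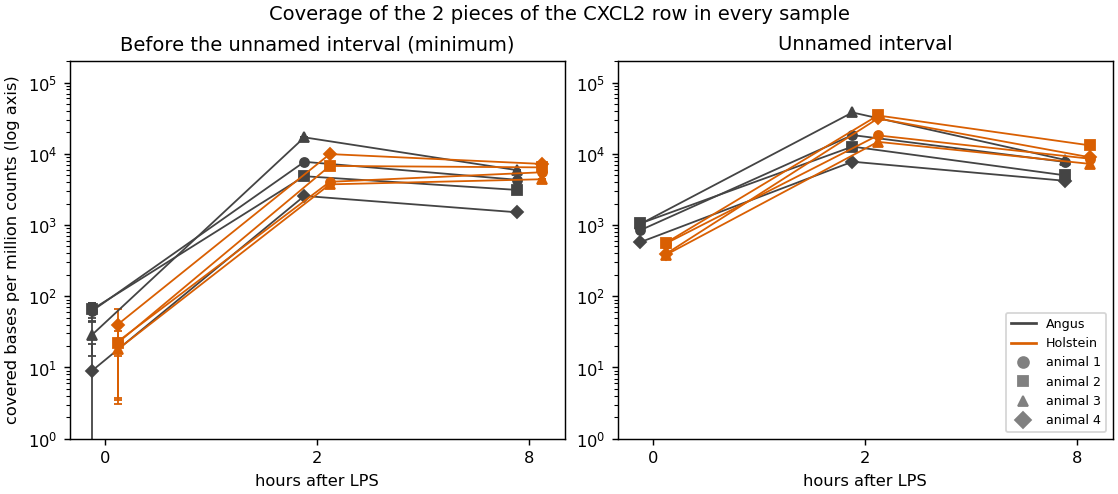
Covered bases scaled by library totals without TMM (log axis) at 0, 2 and 8 h in each animal, at left for the part of the CXCL2 row before the unnamed interval (a minimum, where error bars are the largest rounding error, cut off by the axis where they reach 0) and at right for the whole interval. After 2 h the left panel stays near level in Holstein and drops in Angus, and the right panel drops in all 8 animals.

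The interval itself behaved as an LPS-induced row. Its counts rose by 5.32 ± 0.32 on the log2 scale at 2 h and by 3.69 ± 0.25 at 8 h with the breeds combined (edgeR, FDR = 4.33e-40 and 2.75e-37). It held 180 to 416 CPM in Holstein and 90.8 to 548 CPM in Angus at 2 h, and 84.3 to 146 CPM and 42.1 to 95.1 CPM at 8 h. It fell from 2 to 8 h in both breeds, at -1.46 ± 0.29 in Holstein (edgeR, FDR = 1.34e-05) and -1.86 ± 0.52 in Angus (FDR = 0.00712, or 0.0598 with the F test). The name of the transcript or transcripts behind it cannot be read from the count table.

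By shape over the 24 samples, the members fell into a close pair and a looser companion. The Pearson r of log2(CPM + 1) was 0.963 between IL8 and the CXCL2 row, the highest of 13074 symbol rows for either. Next to IL8 came NAB1, a corepressor of early growth response factors, at 0.95 and CD40, a receptor of the TNF receptor family, at 0.948. Next to CXCL2 came MAP2K3, a kinase that activates p38, and NAB1, both at 0.961. CXCL6 was most like CFB (complement factor B) and CTSC (cathepsin C), both at 0.922, and IL6 at 0.92, while its r with IL8 was 0.884 and with CXCL2 0.833. These values describe libraries that share hours and animals, and the LPS step at 2 h is in all of them.

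Of the receptors for these ligands, CXCR1 has no row and was not analysed here, and CXCR2 was low. CXCR2 had group means between 0.152 and 0.241 CPM, and 7 of 10 receptor names had a row, of which 2 passed the filter, CXCR7 and CXCR4. CXCR7, a scavenging receptor for CXCL12, was the most abundant, with group means between 213 and 292 CPM, and was called in no comparison. CXCR4, the signalling receptor for CXCL12, was lower in Holstein at 0 h (-1.60 ± 0.48 on the log2 scale, edgeR, FDR = 0.013) and was not called at the other hours. Of 12 other CXC ligand names 10 had a row and 2 passed the filter. Neither was called for LPS with the breeds combined: CXCL12, a homeostatic chemokine, was at 0.16 and 0.38 (FDR = 0.938 and 0.806) and CXCL16, a membrane-bound one, at 0.25 and 0.87 (FDR = 0.691 and 0.101) at 2 and 8 h. CXCL12 was lower in Holstein at each hour, by -2.50, -2.88 and -2.68, and CXCL16 was higher at 8 h, by 1.2 ± 0.40 (edgeR, FDR = 0.0251). CXCL10, an interferon-induced ligand, had group means of no more than 0.263 CPM.

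Among 12 CC and CX3C ligand names, 11 had a row and 3 were tested with the breeds combined. CCL2, a monocyte attractant, and CCL5, which draws T cells and monocytes, rose at both hours, CCL2 by 3.89 and 3.87 and CCL5 by 5.63 and 7.06 (log2, edgeR, FDR no more than 2.11e-10). At 8 h 4 of the 5 tested were higher in Holstein, beside 2.21% of all rows: CCL20 (3.12 ± 0.99), CX3CL1 (3.91 ± 0.83), CCL5 (2.52 ± 0.63) and CCL2 (1.55 ± 0.35), with edgeR FDR of 0.0276, 0.000769, 0.00306 and 0.00053. None was called in an interaction test, which from 0 to 8 h could be run for CCL2 and CCL5 of these 4. Of 12 names of other secreted factors that act on neutrophils, 3 were tested at 2 h and 2 at 8 h with the breeds combined. PTX3, IL6 and LIF were called higher at 2 h and IL6 at 8 h, beside 2.08% and 1.07% of all rows. IL6 rose by 6.46 ± 0.58 and 6.96 ± 0.48 at 2 and 8 h (edgeR, FDR = 1.42e-16 and 1.28e-26). From 2 to 8 h it rose further in Holstein (2.04 ± 0.41, FDR = 3.41e-05) and was at -0.50 ± 1.04 in Angus (FDR = 0.875). The test of that difference for IL6 did not pass (2.54 ± 1.22, FDR = 0.795). From 2 to 8 h SAA3 was also called higher in Holstein, LIF and TNF were called lower there, and LIF was called lower in Angus. Between breeds, LIF and TNF were called higher in Holstein at 2 h and LIF at 8 h.

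Upstream of the chemokine genes, 7 of 10 tested NF-kB subunits and inhibitors were called higher at 2 h and 6 at 8 h with the breeds combined, beside 2.08% and 1.07% of all rows. NFKBIA, which holds NF-kB in the cytoplasm and is itself an early target, rose by 4.6 ± 0.31 and 3.23 ± 0.26 (edgeR, FDR = 1.31e-34 and 1.83e-26). It was higher in Holstein at 2 h (1.23 ± 0.41, FDR = 0.0196) and at 8 h (1.35 ± 0.18, FDR = 1.88e-10), and with IL8 it was the other listed gene called in the 0 to 8 h interaction (1.48 ± 0.25, FDR = 6.86e-05), in which the F test called 0 of 20368 rows. Of 8 LPS recognition genes tested, TICAM1, an adaptor of TLR4, was called at 2 h, and none at 8 h. TLR4, the LPS receptor, was higher in Holstein at 0, 2 and 8 h by 1.59 ± 0.50, 2.01 ± 0.41 and 1.33 ± 0.36 (edgeR, FDR = 0.0209, 9.66e-05 and 0.00457), and the other 7 were called between breeds at no hour.

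Of 8 tested genes that control the decay of chemokine transcripts, ZC3H12A was called with the breeds combined. It encodes regnase-1, an RNase that cleaves cytokine messages, and rose by 2.67 ± 0.30 at 2 h and 1.40 ± 0.24 at 8 h (edgeR, FDR = 1.18e-14 and 8.89e-07). From 2 to 8 h it was lower in Holstein, at -1.30 ± 0.27 (FDR = 3.63e-05) and was at -1.2 ± 0.46 in Angus (FDR = 0.069). No gene of this list was called between breeds at any hour, and ZFP36L2, a protein that destabilises AU-rich messages, was the 1 called in the 2 to 8 h interaction.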

How the data were processed

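RNA-Seq data of 24 DF samples (4 animals per breed at 0, 2 and 8 h) were re-analysed from 1 table per sample. The authors aligned filtered reads to UMD 3.1 with NextGENe 2.3.4 and deposited raw read counts per row, a gene span or an unnamed interval, and the mean coverage per base of each row. CASAVA 1.7 is named in the submitters' notes. Rows overlap, the count totals exceed the matched reads in each library, and the handling of strand and of reads shared by near-identical genes is not given in the sources used here.

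Counts were analysed with edgeR 4.0.16 in R 4.3.3 with the filter, likelihood-ratio test and Benjamini-Hochberg adjustment that the study's methods name: rows with at least 1 CPM in 50% of the samples compared were tested on each comparison's own samples and adjusted over all rows tested. TMM scaling and a fit without an animal term were chosen here. Alternatives included DESeq2 1.42.0. Floors of 3 counts cover counting error only. Deposited coverage was multiplied by row length to give covered bases. Between breeds, exact permutation tests used 4 against 4 animals. Titles number the same animal at each hour, and same-numbered samples deviated together (r at least 0.43, mean of other pairs no more than -0.2). No 2 libraries of a group agreed within sampling noise. Scripts were tested on simulated counts.

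Named genes were the members, symbol rows within 500 kb of IL8, members of the pathway lists, and for each member the 3 symbol rows with the highest r. The members and lists were chosen with earlier results of these data known.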

Additional observations from a re-analysis of the deposited data

Results flagged for a closer look

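The IL8 response to LPS from 0 to 8 h was larger in Holstein by 3.57 on the log2 scale (edgeR, FDR = 0.00276) and by 3.79 with the animal block. The call was lost with the F test (FDR = 0.752) and with block and F test (FDR = 0.0505). It was also lost without the 4 libraries that stood apart (FDR = 0.179) and without Holstein animal 4 (FDR = 0.0666). Of all rows these fits called 0%, 0.108%, 0.0295% and 0.00979%, against 0.0982% in the main fit. From 2 to 8 h the IL8 level went in opposite directions, up in 4 of 4 Holstein and down in 4 of 4 Angus animals. The mean log2 change differed by 1.89 (exact permutation test, p = 0.0286, the smallest that 4 against 4 allows and given by 5 of 9 such tests). With the animal block the interaction was 1.90 (edgeR, FDR = 5.84e-19), beside 0.956% of all rows called. Without the block it was 1.96 and not called. Without the 2 h library of Angus animal 3 as well, it was 1.01 and not called.

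With the animal block the CXCL2 row also differed between breeds from 0 to 8 h, at 1.52 (edgeR, FDR = 7.15e-09), beside 0.491% of all rows. CXCL6 differed from 0 to 8 h at 1.01 (FDR = 0.00829), a call lost with block and F test (FDR = 0.122), and from 2 to 8 h at 1.94 (FDR = 3.38e-28). Of 18 sets of 4 samples, 3 rows in 6 groups, none held a CPM value that stood apart from the other 3 by Dixon's criterion at the 95% level. Chance alone sets apart about 1 such set in 20.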

How the results depend on the processing

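Over 41 member results and 691 re-computed values, 655 kept their direction and their side of the threshold, 19 passed it newly, 4 no longer passed and 13 changed sign. The re-computed values include repeats of the main fit where no library compared stood apart, and the FDR limit alone, which cannot lose a call. For the count of members called, 1 in Holstein from 2 to 8 h became 2 with the FDR limit alone, which 4791 of 20533 rows met. With an animal left out the count was 1 or 2, beside 3.72% to 4.34% of all rows. In Angus from 2 to 8 h, 0 became 1 with the animal block (2.73% of all rows called) and with the block and F test (2.67%). The count also became 1 in 1 fit over all 24 samples (2.5%) and without the 4 libraries that stood apart (2.3%). With an animal left out the count was 0 or 1, beside 2.12% to 2.5% of all rows. Between breeds at 0 h, 0 became 1 without the CPM filter (IL8, -1.40, FDR = 0.028), a run that also dropped the limit on average CPM. It also became 1 without the 4 libraries. These runs called 3.65% and 1.27% of all rows tested. At 8 h the count was 1 to 3 with an animal left out, beside 2.19% to 5.52% of all rows. In the 0 to 8 h interaction, 1 became 3 with the animal block, 0 with the F test and 0 without the 4 libraries. Those fits called 0.491%, 0% and 0.0295% of all rows, against 0.0982% in the main fit. With an animal left out the count was 0 to 2, beside 0.00979% to 0.304% of all rows. In the 2 to 8 h interaction, 0 became 2 with the animal block, with either test. With the block the likelihood-ratio test called 0.956% of all rows and the F test 0.749%. The block, which pairs samples of 1 animal, changed no other count of members. The IL8 difference at 0 h was -0.84 to -0.64 with an animal left out.

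Each reversed value was one that was not called. For CXCL6 at 0 h (0.16 for Holstein over Angus), these were -0.63 without the 4 libraries, -0.02 and -0.12 without Angus animals 1 and 4, and -0.53 without Holstein animal 2, with 0.59 the highest value with an animal left out. For IL8 at 2 h (0.23), they were -0.06 without Angus animal 2 or 4 and -0.17 without Holstein animal 2, with 1.16 the highest. For CXCL2 at 2 h (-0.06), they were 0.03 with library totals only, 0.70 without the 4 libraries or without Angus animal 3, and 0.09 and 0.12 without Holstein animals 1 and 3, with -0.36 the lowest. The CXCL6 interaction from 0 to 2 h (-1.11) was 0.44 without the 4 libraries. The cause was not tested. Scaling by library totals moved the median of all rows by up to 0.177 (Angus, 2 to 8 h) and changed no count of members. IL8 at 0 h rests on 3 to 21 counts.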
